A study of Mus musculus with 12 samples.

Results

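The genes of bile acid synthesis and transport were examined in mouse liver by ribosome profiling (Ribo-seq), in which the mRNA fragments covered by ribosomes are sequenced, so that a gene's level in libraries labelled Ribo-seq is meant to stand for the ribosomes found on its mRNA. The members were the 10 rows of the deposited Ribo-seq table, out of 25033, with the symbols Cyp7a1, Hsd3b7, Cyp8b1, Akr1d1, Cyp27a1, Cyp7b1, Slc27a5, Baat, Abcb11 and Slc10a1. Livers came from male C57BL/6 mice aged 16 weeks that had been fed a high-fat diet from 8 weeks of age for 8 weeks. The HFD group received the high-fat diet alone and the LYC group the high-fat diet with lycopene, the red carotenoid of tomato. Each group had 3 Ribo-seq libraries, numbered here HFD1 to HFD3 and LYC1 to LYC3, of 12 libraries in the series. That LYC mice ate lycopene comes from the sample titles and the study's methods, as the labelled treatment is a high-fat diet in both groups. The study describes the libraries of a group as biological replicates. The labels describe pooling of footprints, and the study's methods pooling of digested samples, ahead of library preparation. How far the spread between libraries that p-values below measure is technical therefore cannot be told.

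Hepatocytes turn cholesterol into bile acids by a series of oxidations. The classic pathway opens with Cyp7a1, and Cyp8b1 decides how much cholic acid is made relative to chenodeoxycholic acid and its derivatives, whereas the alternative pathway opens with Cyp27a1 and passes through Cyp7b1. Unconjugated bile acids are activated to CoA esters by Slc27a5, and CoA esters are joined to taurine or glycine by Baat. The conjugates are pumped into bile by Abcb11 and taken back from portal blood by Slc10a1. Bile acids hold back their own synthesis through the nuclear receptor FXR and the FGF15 and FGFR4 signal from the gut.

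Of the 10 genes, 3 were lower in LYC than in HFD and 0 were higher. Those lower were Hsd3b7, Cyp8b1 and the export pump Abcb11, with mean RPKM 2.79, 3.10 and 2.50 times as high in HFD as in LYC. A gene was called when its limma log2 fold change lay beyond 1 in either direction with p under 0.01 before adjustment, on log2 of RPKM divided by a TMM scaling factor, plus 1. Among all 5776 genes tested, 6.99% were called higher and 6.32% lower, the shares to hold beside each list below. In counts these were 404 and 365, and with total-count scaling in place of TMM they became 235 and 651. Leaving out 1 library gave 154 to 576 lower. Of the 10 members, 7 had a negative and 3 a positive log2 fold change, and their median was -0.34 against -0.10 over all genes tested. With an unadjusted p below 0.05, where 15.0% of all genes were higher and 15.0% lower, Baat was also higher and Slc27a5 also lower. At that limit total-count scaling gave 0 members higher and 5 lower, Slc10a1 added, against 7.48% and 23.6% of all genes. On recovered reads edgeR and DESeq2 called the same 3 genes lower and 0 higher, and both had Cyp7a1 higher at an unadjusted p below 0.05. All 10 members passed the filter on low counts. Leaving out LYC1 left 0 members called lower, and Cyp7a1 was called higher without LYC2 and Baat without LYC3.

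The 3 genes called lower lie on different chromosomes, and their upstream sequences are shown because they moved together. Each sequence runs 5′ to 3′ on the strand of its gene, from 250 bases before to 50 bases after the RefSeq start of transcription on GRCm38.p6. Abcb11 is at chr2:69342567-69342866 (minus strand), Hsd3b7 at chr7:127800359-127800658 (plus strand) and Cyp8b1 at chr9:121916256-121916555 (minus strand). Capitals mark a match, on either strand, to AGGTCA (the half-site of many nuclear receptors), TTANGTAA (the site of PAR bZIP factors), CCAAT (the CCAAT box) or TATAAA (the TATA box).
Abcb11: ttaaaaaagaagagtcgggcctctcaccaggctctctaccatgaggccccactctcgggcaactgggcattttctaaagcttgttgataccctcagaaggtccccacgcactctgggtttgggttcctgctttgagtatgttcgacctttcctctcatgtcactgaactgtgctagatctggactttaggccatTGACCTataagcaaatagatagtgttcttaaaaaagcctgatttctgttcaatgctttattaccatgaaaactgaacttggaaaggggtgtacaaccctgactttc
Hsd3b7: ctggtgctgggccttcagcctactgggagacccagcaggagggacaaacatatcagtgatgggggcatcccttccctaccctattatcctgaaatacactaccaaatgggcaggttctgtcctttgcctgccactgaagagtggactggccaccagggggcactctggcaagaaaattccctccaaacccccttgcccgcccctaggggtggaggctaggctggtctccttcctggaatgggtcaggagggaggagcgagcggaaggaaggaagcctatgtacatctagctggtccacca
Cyp8b1: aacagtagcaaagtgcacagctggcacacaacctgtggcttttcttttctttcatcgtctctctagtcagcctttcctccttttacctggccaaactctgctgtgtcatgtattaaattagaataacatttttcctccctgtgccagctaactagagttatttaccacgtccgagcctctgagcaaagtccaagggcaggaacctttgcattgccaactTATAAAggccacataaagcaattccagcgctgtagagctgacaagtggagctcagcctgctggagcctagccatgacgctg
The Abcb11 sequence held AGGTCA on the opposite strand from base -56, a motif found in 16.3% of 32851 RefSeq promoters of this length. The Cyp8b1 sequence held TATAAA from base -31, which 13.6% of promoters hold. The Hsd3b7 sequence held none of these motifs, and TTANGTAA occurred in 2.32% and CCAAT in 37.4% of promoters. Also searched on both strands were CAAGGTCA, an extended half-site that contains AGGTCA and occurs in 1.56% of promoters, the direct repeats of AGGTCA with 1 or 4 bases between the copies, its inverted repeat with 1 base between, and the HNF1 site of GTTAAT and its reverse complement with 1 base between. They matched none of the 3 sequences. Promoter entries were also present for Cyp27a1, Akr1d1 and Slc10a1, and were matched by symbol for 6 of the 10 members. Of the 7 entries, 3 held AGGTCA (Abcb11, Akr1d1 and 1 of the 2 of Slc10a1), 2 held TATAAA (Cyp8b1 and the other of Slc10a1), 1 held CCAAT (Cyp27a1) and 0 held TTANGTAA.

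Footprints begin at the start codon, whose surroundings differed among the 3 genes. The 12 bases before the start codon and the 12 that begin with it are shown for the genes called lower, with the start codon in capitals, from RefSeq transcripts on GRCm38.p6.
Abcb11 (exon 3, from chr2:69329345): attgcagacaccATGtctgactca
Cyp8b1 (exon 1, from chr9:121916264): tggagcctagccATGacgctgtgg
Hsd3b7, transcript of 1771 bases (exon 2, from chr7:127801162): catattgttcggATGctgctggaa
Hsd3b7, transcript of 1823 bases (from chr7:127801081): ctacagctgggcATGgcagactct
The 2 Hsd3b7 transcripts begin translation at different codons and encode 342 and 369 amino acids. The deposited Ribo-seq RPKM rests on the shorter transcript, so its level cannot be divided between the 2 forms. Across the members' RPKM transcripts, 8 of 10 had A or G 3 bases before the start codon and 4 of 10 had G right after it.

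Depth differed between the groups. The per-million denominators implied by the RPKM steps were 834410 to 4405541 reads in the HFD libraries and 311050 to 412116 in the LYC libraries, and the median HFD total was 6.91 times the median LYC total. A single read on a 1 kb transcript was worth 0.227 to 1.198 RPKM in HFD and 2.43 to 3.21 RPKM in LYC, so LYC values of lowly occupied genes are coarse. Small non-coding RNA genes took 2.48 to 3.96% of the recovered reads in HFD and 8.40 to 12.9% in LYC. With TMM factors computed without these small RNA genes, the same 3 members were called lower and 0 higher. Depth and diet cannot be told apart in this design.

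**Figure D1:**
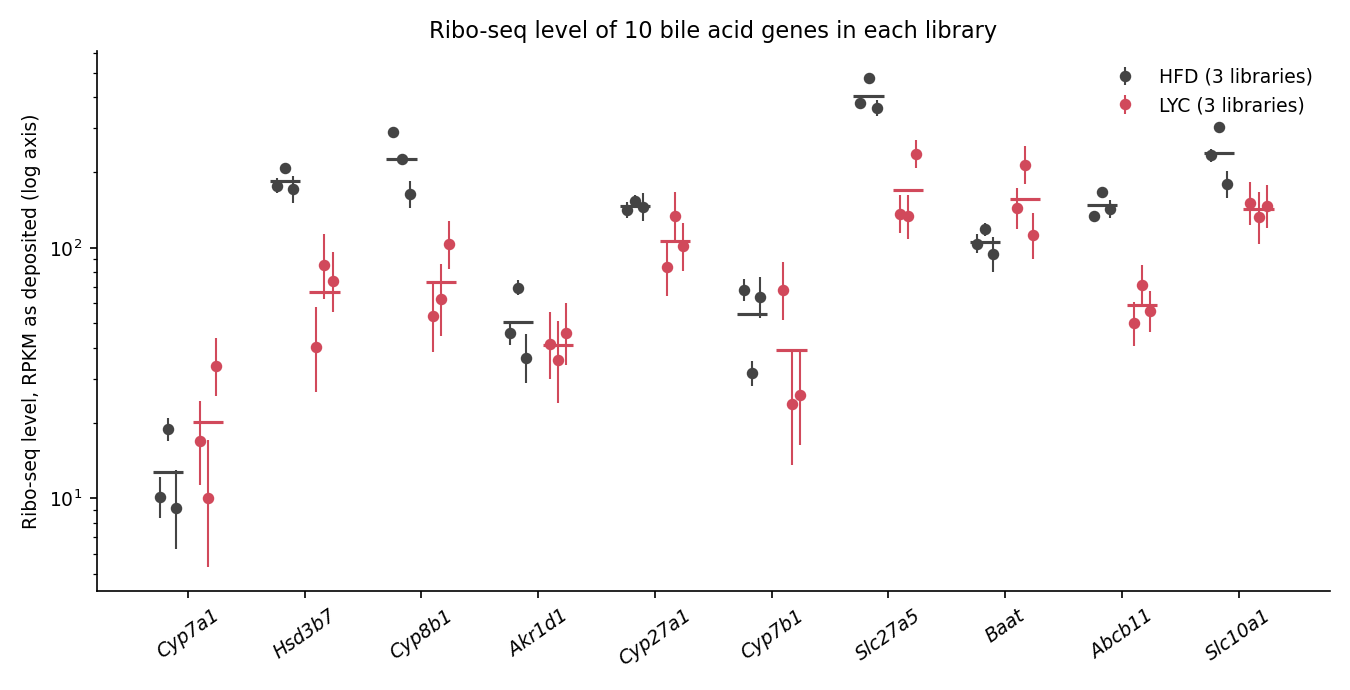
Ribo-seq level in RPKM as deposited, on a log axis, of the 10 bile acid genes in each HFD and LYC library. Points are libraries, vertical bars are exact 95% Poisson intervals of the recovered reads (counting error only) and horizontal bars are group means. For Hsd3b7, Cyp8b1, Slc27a5 and Abcb11 every LYC library lies under every HFD library, as also for Cyp27a1 and Slc10a1 before scaling, and intervals are wider in LYC.

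Cyp7a1, the cholesterol 7-alpha-hydroxylase and rate-limiting enzyme of the classic pathway, lies at chr4:6265612-6275632 (minus strand, 6 exons). Its level was 10.1, 18.9 and 9.19 RPKM in HFD1, HFD2 and HFD3, and 17.01, 10.02 and 33.7 RPKM in LYC1, LYC2 and LYC3. LYC3 was the highest of all 6 libraries, while LYC2 was among the low HFD values, so the groups overlapped. The log2 fold change was 0.82 (SE 0.46, 95% interval -0.22 to 1.86; limma adjusted p = 0.265) and was not called. The LYC values rested on 28, 13 and 58 reads. Without LYC2, the shallowest library, Cyp7a1 was called higher at 1.28, and the leave-one-out values ranged from 0.39 to 1.28.

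Cyp7a1 is known to follow the daily feeding and clock cycle in liver, and the labels give no hour of sampling. Of 15 clock genes, 10 were tested, and limma called Dbp, Tef and Per2 higher and Clock lower in LYC. Of these, Dbp alone stayed called in every fit. With total-count scaling, with TMM factors computed before the filter or without LYC2 it was the 1 tested gene called higher. Without HFD1 or HFD3 it was the 1 gene called at all. Per2 and Clock lost their calls without HFD2, with a replicate block and with a pseudocount of 5. Clock was also not called with the length trend removed, nor Per2 without LYC1, nor Tef without LYC3. Dbp, a PAR bZIP factor of the clock output, was at 1.09, 7.30 and 5.00 RPKM in HFD and 21.2, 51.7 and 31.8 RPKM in LYC, with a log2 fold change of 3.10 (limma adjusted p = 0.00742). The groups did not overlap for Dbp. The summed scaled level of the 15 genes was 64.8 to 78.4 RPKM in HFD and 107 to 148 RPKM in LYC. Most of the rise in the sum came from Dbp, whose mean scaled level went from 3.89 to 37.6 RPKM, and Tef, from 8.98 to 25.8 RPKM. Clock was at 5.97 and 1.96 RPKM, Hlf, lower at an unadjusted p below 0.05, at 6.02 and 2.29 RPKM, and Arntl at 5.23 RPKM in HFD. Arntl, Npas2 and Bhlhe41 had no read in LYC, and a fit without the filter called Arntl, Npas2 and Clock lower and Dbp and Ciart higher, Ciart on 4 reads in HFD and 9 in LYC, and did not call Per2 or Tef. The part of the clock genes in the values of the bile acid genes was not tested.

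Hsd3b7, the 3-beta-hydroxy-C27-steroid oxidoreductase that follows Cyp7a1, lies at chr7:127800609-127803802 (plus strand, 7 exons). It was at 177, 208 and 172 RPKM in HFD1, HFD2 and HFD3, and at 40.1, 85.3 and 74.0 RPKM in LYC1, LYC2 and LYC3. Every LYC library was below every HFD library, LYC1 furthest. The log2 fold change was -1.24 (SE 0.26, 95% interval -1.83 to -0.65; limma adjusted p = 0.0207). Reads numbered 254 to 1621 per HFD library and 28 to 54 per LYC library.

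Cyp8b1, the sterol 12-alpha-hydroxylase needed for cholic acid, is a gene of 1 exon at chr9:121914356-121916305 (minus strand). Its values were 290, 226 and 163 RPKM in HFD1, HFD2 and HFD3, against 53.3, 62.6 and 103 RPKM in LYC1, LYC2 and LYC3. The LYC libraries were all below the HFD libraries, although the spread within HFD was wide. It had the lowest log2 fold change of the 10 genes, at -1.35 (SE 0.32, 95% interval -2.07 to -0.62; limma adjusted p = 0.0309), on 38 to 83 reads per LYC library.

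Akr1d1, the 5-beta-reductase that sets the bent A/B ring of bile acids, lies at chr6:37529978-37574921 (plus strand, 9 exons). Its level was 45.7, 69.4 and 36.4 RPKM in the HFD libraries and 41.3, 35.7 and 45.9 RPKM in the LYC libraries. The ranges overlapped throughout. Its log2 fold change was 0.04 (95% interval -0.58 to 0.66), so a change inside that interval was not detectable here. Its sign turned with total-count scaling, to -0.25. Of the 4 enzymes listed here under the classic pathway, 2 were thus called lower and 0 higher. Hsd3b7 and Akr1d1 are not particular to that pathway, so this count does not compare the classic with the alternative pathway.

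Cyp27a1, the mitochondrial sterol 27-hydroxylase of the alternative pathway and of side chain oxidation, lies at chr1:74713148-74737897 (plus strand, 9 exons). It was even across HFD, at 142, 154 and 146 RPKM, and was 83.8, 135 and 102 RPKM in LYC. The LYC libraries were below on deposited RPKM but overlapped HFD after TMM scaling. The log2 fold change was -0.19 (SE 0.22, 95% interval -0.69 to 0.31; limma adjusted p = 0.582). It was not called.

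Cyp7b1, the oxysterol 7-alpha-hydroxylase, lies at chr3:18071944-18243890 (minus strand, 6 exons). The HFD libraries held 67.9, 31.6 and 63.6 RPKM and the LYC libraries 67.9, 23.7 and 25.8 RPKM. HFD2 was low in its group and LYC1 high in its own, so the groups overlapped. The standard error, 0.53 around a log2 fold change of -0.27, was the largest of the 10 genes. Its sign turned without LYC2, to 0.07. Of the 2 enzymes listed here under the alternative pathway, 0 were called by limma, edgeR or DESeq2 and 0 had an unadjusted p below 0.05.

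Slc27a5, the bile acid-CoA synthetase, lies at chr7:12988346-12998192 (minus strand, 10 exons). It had the highest level of the 10 genes in HFD, with 377, 475 and 362 RPKM in HFD1, HFD2 and HFD3. LYC1, LYC2 and LYC3 held 137, 134 and 237 RPKM, all below HFD. Its log2 fold change of -0.999 (SE 0.28, 95% interval -1.63 to -0.37; limma adjusted p = 0.0520) fell just short of the fold limit, and it was called lower where the TMM factors were computed before the filter on low counts, at -1.15.

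Baat, which joins the CoA ester to taurine or glycine, lies at chr4:49489416-49507915 (minus strand, 4 exons). It was at 104, 119 and 94.2 RPKM in HFD and at 145, 215 and 112 RPKM in LYC. LYC3 lay within the HFD range on deposited RPKM, and after TMM scaling all LYC libraries were above all HFD libraries. Across all genes tested, 18.7% had every scaled LYC value above every HFD value. The log2 fold change was 0.82 (SE 0.26, 95% interval 0.23 to 1.41; limma adjusted p = 0.0758) and was not called, and without LYC3 it was called higher at 1.04.

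Abcb11, the bile salt export pump of the canalicular membrane, lies at chr2:69238282-69342616 (minus strand, 29 exons). It was at 134, 167 and 143 RPKM in HFD1, HFD2 and HFD3, and at 49.99, 71.2 and 56.1 RPKM in LYC1, LYC2 and LYC3. The groups were far apart relative to their spread. The log2 fold change was -1.03 (SE 0.21, 95% interval -1.51 to -0.55; limma adjusted p = 0.0192), close to the fold limit, so the call was lost in 4 fits where the fold lay between -0.997 and -0.83.

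Slc10a1, the sodium taurocholate uptake carrier of the basolateral membrane, lies at chr12:80953185-80968705 (minus strand, 6 exons). It held 235, 305 and 180 RPKM in HFD and 151, 132 and 147 RPKM in LYC. The LYC libraries were below on deposited RPKM and overlapped HFD after scaling. The log2 fold change was -0.41 (SE 0.24, 95% interval -0.97 to 0.14; limma adjusted p = 0.294). Slc10a1 was at -0.71 with total-count scaling, and at -0.57 without the filter on low counts and with TMM factors computed before it. In those fits it was lower under the unadjusted 0.05 limit used above, but in the other Ribo-seq fits it was not. With total-count scaling 23.6% of all genes were lower under that limit. Slc10a1 was called in none of the 19 alternatives. Of the 2 transporters, 1 was called lower.

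On scaled RPKM, Hsd3b7, Cyp8b1, Slc27a5 and Abcb11 were the 4 of 10 genes with every LYC library below every HFD library, as were 18.9% of all genes tested. Only Hsd3b7, Cyp8b1 and Abcb11 of the 10 genes had a limma adjusted p below 0.05, a share to be read against 11.5% of all genes. Without LYC1 limma called 0 members lower, with Hsd3b7 at -0.998, Abcb11 at -0.997 and Cyp8b1 at -1.23. Hsd3b7 and Abcb11 then lay just under the fold limit, and Cyp8b1 missed the limit on p. Without HFD1 the call of Cyp8b1 was lost, and without LYC3 that of Abcb11. In whole liver, fewer cells of a type and fewer reads per cell cannot be told apart.

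**Figure D2:**
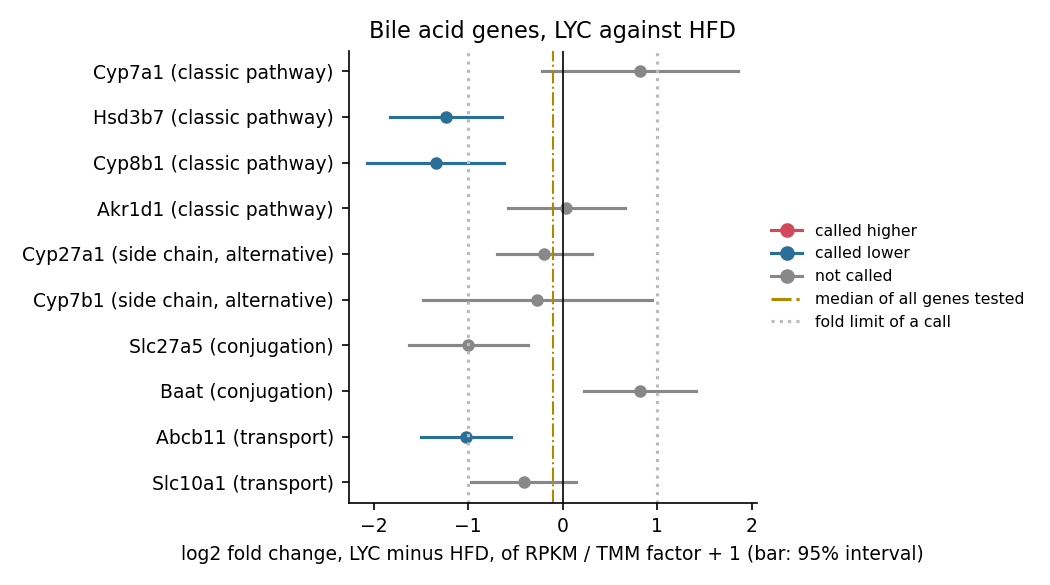
Log2 fold change, LYC minus HFD, of RPKM divided by the TMM factor plus 1 for the 10 bile acid genes, grouped by role. Points are limma estimates from 3 libraries per group and bars are 95% intervals. Hsd3b7, Cyp8b1 and Abcb11 are called lower, the dash-dot line marks the median of all genes tested (-0.10) and the dotted lines mark the fold limit.

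The reads of the 10 genes together made up 0.426, 0.445 and 0.400% of the recovered reads of HFD1, HFD2 and HFD3, against 0.201, 0.227 and 0.243% in LYC1, LYC2 and LYC3. The mean was 0.424% ± 0.0226 (SD, n = 3) in HFD and 0.224% ± 0.0213 (SD, n = 3) in LYC. The groups did not overlap, and a two-sided exact permutation test gave p = 0.1, the smallest that 3 libraries against 3 allow. The share includes the small RNA reads in its denominator. After TMM scaling, the summed level was 1416 ± 93.8 RPKM in HFD against 969 ± 62.9 RPKM in LYC (exact permutation p = 0.1).

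How these reads divided among the genes also differed. Baat took 5.59, 5.58 and 5.67% of the members' reads across the HFD libraries, against 15.8, 20.5 and 10.1% across LYC1, LYC2 and LYC3. Its share was nearly constant in HFD and variable in LYC, where it was higher in each library. Slc27a5 took 25.7% ± 1.27 (SD, n = 3) in HFD and 19.6% ± 5.37 in LYC, where LYC3 at 25.6% lay in the HFD range. Abcb11, the longest transcript of the set, took 20.1% ± 1.86 and 14.7% ± 2.31. Cyp7a1 rested on 1.16 to 1.90% of these reads in HFD and 2.05 to 6.52% in LYC.

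**Figure D3:**
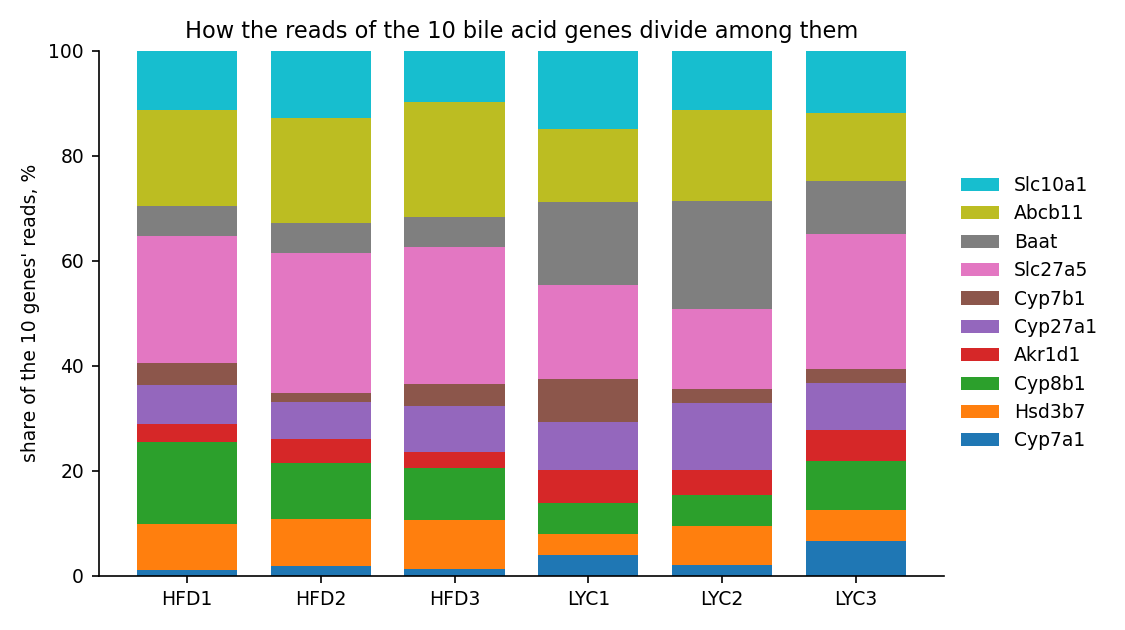
Share of the 10 genes' recovered reads, in percent, that fell on each gene in each library; each bar is a library and sums to 100. The Baat segment is 5.58 to 5.67% in HFD and 10.1 to 20.5% in LYC.

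A ratio of 2 genes inside a library depends on the scaling between libraries only through the 1 added to each RPKM. The 5 ratios of RPKM plus 1 compared here reuse the member values above and are not separate support. The share of all gene pairs without overlap was not computed. Of single genes tested, 37.7% did not overlap on scaled RPKM. Cyp8b1 and Cyp7a1 had the lowest and the highest log2 fold change of the 10 genes. Cyp8b1 over Cyp7a1, the 12-hydroxylase relative to the opening enzyme, was 26.2, 11.4 and 16.1 in HFD1, HFD2 and HFD3 and 3.02, 5.78 and 3.00 in LYC1, LYC2 and LYC3. All LYC ratios were below all HFD ratios, by 4.52-fold in the mean of the logs. The mean log2 ratio was 4.08 ± 0.60 (SD, n = 3) in HFD and 1.90 ± 0.54 in LYC, with an exact permutation p of 0.1 (0.167 adjusted over the 5 ratios).

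Baat over Slc27a5, the conjugating enzyme relative to the activating one, was 0.278, 0.251 and 0.262 in the HFD libraries, against 1.05, 1.60 and 0.475 in the LYC libraries. The LYC ratios were all above the HFD ratios, and the HFD ratios were close to each other. The difference was 1.82 on the log2 scale, or 3.52-fold (exact permutation p = 0.1, 0.167 adjusted). Slc10a1 over Abcb11, uptake relative to export, was 1.75, 1.82 and 1.25 in HFD and 2.98, 1.85 and 2.59 in LYC. These groups did not overlap either, but HFD2 and LYC2 nearly touched, and the difference was 0.61 on the log2 scale (exact permutation p = 0.1, 0.167 adjusted).

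The balance of the opening enzymes was less clear. Cyp7a1 over Cyp27a1 differed by 1.02 on the log2 scale (exact permutation p = 0.2, 0.25 adjusted) and Cyp7a1 over Cyp7b1 by 1.10 (exact permutation p = 0.3, also after adjustment). Both had overlapping groups. With 3 libraries per group no ratio could reach a p below 0.1.

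**Figure D4:**
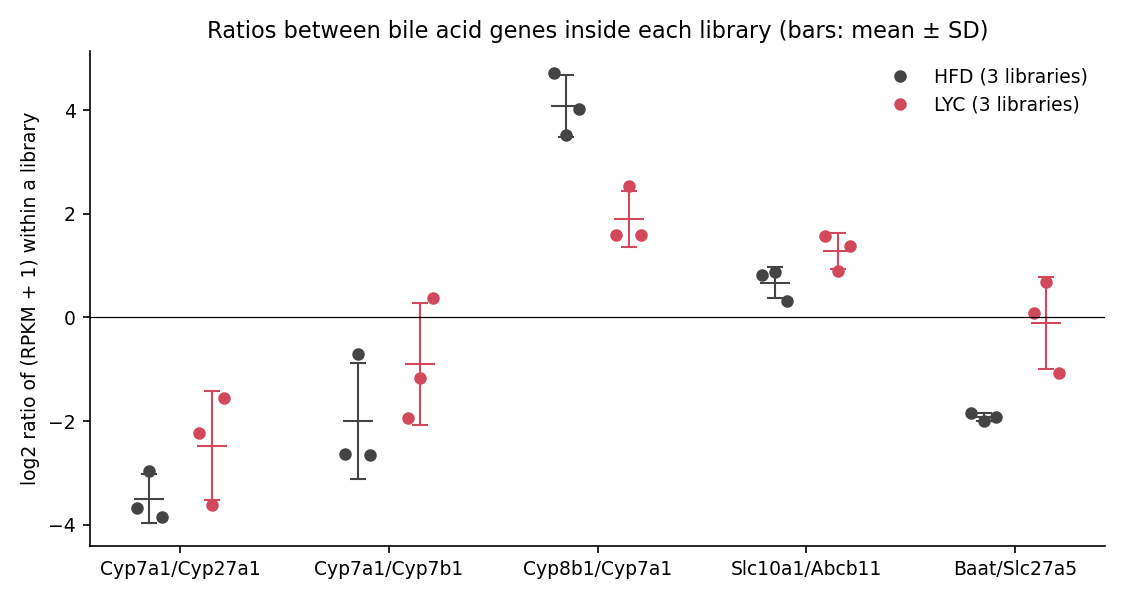
Log2 ratio of RPKM plus 1 between pairs of bile acid genes inside each library, for HFD and LYC; points are libraries, bars are mean ± SD (n = 3). Cyp8b1 over Cyp7a1 is lower in every LYC library, and Baat over Slc27a5 and Slc10a1 over Abcb11 are higher, while both ratios of Cyp7a1 to the alternative pathway overlap.

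Levels of different genes were compared per kb of transcript, as deposited. In HFD the order of mean RPKM was Slc27a5 at 405 ± 61.2 (SD, n = 3), Slc10a1 at 240 ± 62.8, Cyp8b1 at 227 ± 63.2, Hsd3b7 at 186 ± 19.3, Abcb11 at 148 ± 17.05, Cyp27a1 at 147 ± 6.09, Baat at 106 ± 12.3, Cyp7b1 at 54.4 ± 19.8, Akr1d1 at 50.5 ± 17.01 and Cyp7a1 at 12.7 ± 5.35. Neighbours overlapped except where Slc27a5 stood above Slc10a1, Hsd3b7 above Abcb11, Cyp27a1 above Baat, Baat above Cyp7b1 and Akr1d1 above Cyp7a1. In LYC Slc27a5 at 169 ± 58.9 RPKM was followed by Baat at 157 ± 52.4 and Slc10a1 at 144 ± 9.75, which overlapped. Cyp7a1 was again lowest, at 20.3 ± 12.2 RPKM, but overlapped Cyp7b1 at 39.1 ± 24.9. In LYC, the gap between Abcb11 and Akr1d1 was the only one without overlap between neighbours.

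These lengths include untranslated sequence, which in general holds few footprints. Where reads fell along the transcripts was not tested, so the order per coding kb assumes that the libraries hold footprints. The coding share of the RPKM length ran from 36.2% in Cyp7a1 and Akr1d1 to 88.8% in Slc27a5. Per kb of coding sequence, Slc27a5 at 456 ± 68.9 RPKM and Slc10a1 at 385 ± 100.7 overlapped in HFD. On this scale Akr1d1 rose to 139 ± 46.9 and stood apart above Cyp7b1 at 77.3 ± 28.2, and Cyp7a1 at 35.1 ± 14.8 overlapped Cyp7b1. In LYC the highest mean per coding kb was that of Baat, at 242 ± 80.8. It overlapped Slc10a1 at 230 ± 15.6, which in turn overlapped Slc27a5 at 191 ± 66.3.

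The other enzymes of bile acid synthesis were taken from a list of 14 genes, of which 11 were tested, 2 were called higher and 0 lower by limma, as by edgeR and DESeq2. Limma called 6.99% of all genes tested higher and 6.32% lower. At an unadjusted p below 0.05, where 15.0% of all genes were higher and 15.0% lower, 5 were higher (Abcd3, Akr1c14, Akr1c6, Hsd17b4 and Scp2) and 0 lower. With total-count scaling, where the shares of all genes were 7.48% and 23.6%, 2 were higher (Akr1c14 and Hsd17b4) and 2 lower (Cyp39a1 and Slc27a2). Their median log2 fold change was 0.31. Hsd17b4, the peroxisomal bifunctional enzyme of side chain shortening, was at 148 to 221 RPKM in HFD and 283 to 387 RPKM in LYC, with a log2 fold change of 1.18 (limma adjusted p = 0.0143). Akr1c14, a 3-alpha-hydroxysteroid dehydrogenase, was at 83.3 to 125 RPKM in HFD and 149 to 232 RPKM in LYC, with 1.15 (limma adjusted p = 0.0316). Both had all LYC libraries above HFD, but with total-count scaling neither was called. The most abundant genes not called were Scp2, which carries the peroxisomal thiolase, at a log2 fold change of 0.70, and Akr1c6 at 0.67. Ch25h had no read in any library.

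Among 15 regulators 12 were tested, 1 was called higher and 2 lower, with a median log2 fold change of -0.47. Nr1h4, which encodes the bile acid receptor FXR, was at 21.2, 36.1 and 35.2 RPKM in HFD and 73.2, 52.1 and 61.5 RPKM in LYC. Every LYC library was above every HFD library, with a log2 fold change of 1.30 (limma adjusted p = 0.0297), and the call was lost without HFD1, at 1.10. Fgfr4, the receptor for FGF15, was at 15.5, 18.5 and 15.6 RPKM in HFD and 1.61, 1.02 and 4.63 RPKM in LYC. It was lower in each LYC library, with a log2 fold change of -2.25 (limma adjusted p = 0.0143), on 9 reads over the 3 LYC libraries. Nr1h3, the oxysterol receptor LXR alpha, was at 36.6 to 50.7 RPKM in HFD and 7.42 to 18.2 RPKM in LYC, with -1.61 (limma adjusted p = 0.0245) on 23 LYC reads. Hnf4a at -0.36 and Rxra at -0.58 were not called.

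Of 19 other transport genes 15 were tested and limma called 0 in either direction, with a median log2 fold change of -0.27. At an unadjusted p below 0.05, 3 were higher (Abcg2, Abcg5 and Slco1a1) and 4 lower (Abcc3, Abcc6, Atp8b1 and Slco2b1), where 15.0% of all genes were higher and 15.0% lower. With total-count scaling 0 were higher and 5 lower, the same 4 and Abcb4, where 7.48% of all genes were higher and 23.6% lower. Both edgeR and DESeq2 called Abcg5, which exports sterols with Abcg8, higher and Atp8b1, a canalicular phospholipid flippase, lower. The most abundant were the uptake carrier Slco1b2, at a log2 fold change of 0.18, and Ephx1 at -0.54. Slc51a and Slc51b, which form the basolateral bile acid exporter, had no read in any library.

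**Figure D5:**
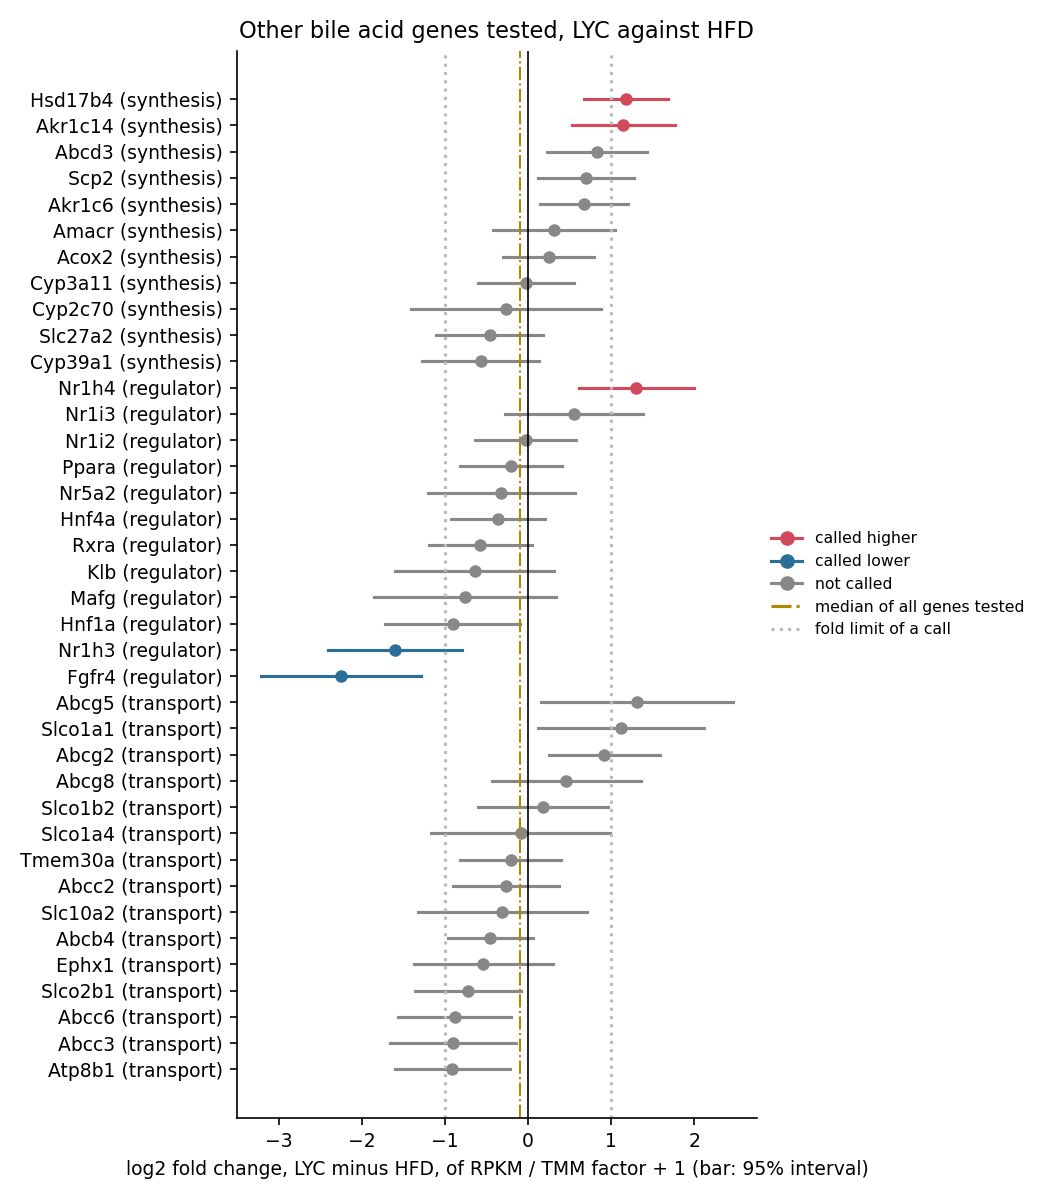
Log2 fold change, LYC minus HFD, of RPKM divided by the TMM factor plus 1 for the 38 other bile acid genes tested, by list. Points are limma estimates and bars 95% intervals. Hsd17b4, Akr1c14 and Nr1h4 are called higher, Nr1h3 and Fgfr4 lower, and no transport gene is called.

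Markers of the cells a liver sample can hold were measured beside these genes. All 8 hepatocyte markers were tested, and their summed scaled level was 35287 to 39671 RPKM in HFD and 30651 to 40067 RPKM in LYC. Alb was the largest part of that sum, with a mean scaled level of 24456 RPKM in HFD and 18994 RPKM in LYC. Of the 8, 4 had a negative log2 fold change and 4 a positive one, and Tat and Cps1 were called higher, Cps1 not with total-count scaling, without a filter, with TMM factors computed before it or in 5 of 6 fits that left out a library (without HFD1, HFD2, HFD3, LYC1 or LYC2). The 6 cholangiocyte markers had 29 to 199 reads per HFD library and 3 to 7 per LYC library, so that the filter on low counts removed them all. Fitted without the filter, Krt7 was called lower, and Spp1 was also lower at an unadjusted p below 0.05. Their summed scaled level was 14.9 to 23.6 RPKM in HFD and 3.61 to 9.22 RPKM in LYC, with Krt19, Krt7, Epcam and Cftr without a read in LYC. Limma called 0 of 5 Kupffer, 0 of 4 endothelial and 0 of 3 stellate markers tested, where edgeR and DESeq2 each called the Kupffer marker Vsig4 higher, and at an unadjusted p below 0.05 only Pecam1 was lower. Limma called Pecam1 lower with total-count scaling, with TMM factors computed before the filter and without LYC1, Clec4g higher without LYC2 and Vsig4 higher without LYC3. Kupffer markers summed to 97.7 to 109 RPKM in HFD and 107 to 163 RPKM in LYC, endothelial markers to 50.3 to 67.9 and 11.9 to 112 RPKM, and stellate markers to 76.6 to 143 and 99.5 to 119 RPKM.

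Bile acid enzymes differ along the lobule, so zonal markers were also read. Of 5 pericentral markers tested, Cyp1a2 was called lower at -1.30 and Oat, at 0.74, was not called but was higher at an unadjusted p below 0.05. The call of Cyp1a2 was lost with TMM factors without small RNA genes, with a pseudocount of 0.5 and without HFD1, HFD3, LYC2 or LYC3. The list summed to 2898 to 3235 RPKM in HFD and 2612 to 4286 RPKM in LYC. Cyp2e1 was the largest part of that sum, with a mean scaled level of 2237 RPKM in HFD and 2697 RPKM in LYC. Of 6 periportal markers Sds was called higher at 1.71 and Cdh1 lower at -1.76, the latter not without HFD1 or HFD3. Ctsc, at -1.02, was lower at an unadjusted p below 0.05 and was called lower by edgeR, by DESeq2 and with total-count scaling, and Hal was called lower without LYC2. The list summed to 454 to 549 and 431 to 685 RPKM. The part of cell makeup and zone in the levels of the bile acid genes was not tested.

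The table labelled RNA-seq did not give the members a second readout. For genes with at least 20 counts, each of its libraries kept a constant ratio to 1 Ribo-seq library within 1% for 19.5 to 56.5% of genes, against 0.815 to 2.95% for the 30 other pairs. For the members, 27 of 30 LYC counts were equal to the reads recovered from the Ribo-seq table, and HFD counts differed by 0 to 6.25%. The numbering of the matching HFD libraries also differed between the tables. edgeR on those counts called the same 3 members lower, Hsd3b7 at -1.20, Cyp8b1 at -1.33 and Abcb11 at -1.02, and 0 higher, where 7.33% of 5921 genes were called lower and 9.31% higher. With total-count scaling 8 members were called lower there, as were 46.6% of all genes. These values describe the same libraries again. Whether the shared libraries hold footprints or mRNA cannot be told from these counts, and levels are named here as labelled, so no translational efficiency was computed.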

How the data were processed

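Ribo-seq libraries of HFD and LYC livers (3 each) were analysed. The authors deposited RPKM values for them, and read counts per gene and RPKM for the libraries labelled RNA-seq. Per the labels and the study's methods, adapters were trimmed with cutadapt and reads filtered and mapped with bowtie2, FANSE2 and STAR (GRCm38/mm10), in versions not given in the sources used here. The digested samples were pooled before ultracentrifugation, per the labels and the study's methods. Reads were recovered from the RPKM steps: with the gene length of the RNA-labelled table, 11057 of 15749 genes above 0 gave whole reads (tolerance 0.01) in every library, and for 4691 a length was fitted. Of 25033 entries, 26 had names turned into dates and 4 sharing a name were left out. Columns without a sample numbered 0.

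Genes kept by filterByExpr (edgeR 4.0.16) were tested with limma 3.58.1 (trend, two-sided) in R 4.3.3, LYC minus HFD, on log2(RPKM / TMM factor + 1), and Benjamini-Hochberg adjustment covered all 5776 genes tested. Fold changes on this scale understate those of low genes. Calls needed a log2 fold change beyond 1 in either direction and p under 0.01 before adjustment. TMM factors were computed after the filter. That order was settled after the calls of both orders had been seen, and the other order also calls Slc27a5. Alternatives used edgeR and DESeq2 1.42.0 on recovered reads, other scalings, pseudocounts of 0.5 and 5, no filter, a stricter p, a replicate block and each library left out. The code was tested on simulated data. The RNA-labelled counts had been planned as a separate readout and were fitted with edgeR. Ratios used exact permutation tests (scipy 1.17.1). Intervals on reads cover counting error only.

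The members and gene lists were chosen with earlier results of these data known. Named genes were all members, the called genes of the bile acid lists, and from each list the 2 genes not called with the highest mean RPKM. Other genes under an unadjusted p of 0.05, or called by another tool, were named after their values were seen. Promoters and transcripts came from RefSeq (GRCm38.p6), and the transcript lengths of all 10 members equalled the lengths behind the RPKM values.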

Additional observations from a re-analysis of the deposited data

How the results depend on the processing

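Over 19 Ribo-seq alternatives Hsd3b7, Cyp8b1, Slc27a5, Abcb11, Cyp27a1 and Slc10a1 stayed negative and Cyp7a1 and Baat positive. Akr1d1 turned to -0.25 with total-count scaling, to -0.11 without a filter and with TMM factors computed before it, and ranged from -0.12 to 0.21 as single libraries were left out (below 0 without HFD3, LYC1 or LYC3), Cyp7b1 from -0.83 to 0.07 (0.071 without LYC2) and Slco1b2 from -0.05 to 0.57 (-0.052 without LYC1). Slco1b2 was -0.11 with total-count scaling. Leaving out libraries gave 0 to 3 members called lower (0 without LYC1) and 0 to 1 higher (Cyp7a1 without LYC2, Baat without LYC3). An unadjusted p below 0.001 left 1 member lower, Abcb11. Slc27a5 was called lower with total-count scaling (-1.29), a pseudocount of 0.5 (-1.001), no filter (-1.15), TMM before the filter (-1.15) and without LYC3 (-1.26). Abcb11 was not called with a pseudocount of 5 (-0.98), with the length trend removed (-0.83), without LYC1 or without LYC3. For those alternatives the cause was not tested. Total-count scaling shifted the median of all genes from -0.10 to -0.36, and TMM before the filter, an alternative chosen after seeing the data, to -0.23.

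Over all genes, 404 were called higher and 365 lower; this became 235 and 651 with total-count scaling, 357 and 877 without a filter, 334 and 222 with a pseudocount of 5, and 196 and 101 at an unadjusted p below 0.001, and leaving out libraries gave 289 to 516 and 154 to 576 (without HFD1, HFD2 and HFD3 182, 199 and 154 lower, without LYC3 576). The 2 synthesis genes called higher became 0 with total-count scaling, 1 without a filter, with TMM before it and at p below 0.001, and 1 to 2 as libraries were left out (1 without HFD3 or LYC1). Of the regulators, 0 to 1 were higher and 2 to 3 lower as libraries were left out, and 0 higher and 1 lower at p below 0.001. Of the transport genes, edgeR and DESeq2 called 1 higher and 1 lower, and leaving out libraries gave 0 to 1 higher and 0 to 3 lower; total-count scaling called 4 lower, no filter 1, and TMM before the filter 2.

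In the table labelled RNA-seq, total-count scaling called 8 members lower, where 46.6% of 5921 genes were called lower and the median of all genes was -1.11, and turned Cyp7a1 to -0.10, Akr1d1 to -1.07 and Baat to -0.23, and Akr1d1 was -0.15 without a filter. Leaving out libraries there gave 0 to 1 members higher and 2 to 3 lower (2 without LYC1). In those fits Akr1d1 ranged from -0.12 to 0.21 and Cyp7b1 from -0.93 to 0.17.

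Replicate numbers did not pair the samples: the correlations of same-numbered deviations were 0.108, 0.0262 and 0.00731, so that not every number's libraries moved together. With a replicate block the same 3 members were called lower and 0 higher, the calls over all genes were 397 and 340, and 1 transport gene, Abcg5, was called higher. Of the clock genes, Per2 and Clock lost their calls under the block. Depth limits the LYC values: Cyp7a1 rests on 13 to 58 reads per LYC library and Fgfr4 on 9 in all, so their LYC levels are imprecise.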
